A study of Mus musculus with 23 samples.

Results

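The 8 complement genes C3, Cfb, C2, C4b, Cfi, Cfd, Cd55 and Serping1 were followed in RNA sequencing of whole mouse jejunum. They are 8 of the 55487 genes in the table, and were chosen by the level of C3, which was higher in immunized than in naive Cpa3+/+ jejunum in the same data. Of the 8 genes, 7 passed the filter on low counts, and Cfd did not. Every comparison that uses either of these groups is given below as values with no test.

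The 23 libraries came from 12 Cpa3+/+ (wild type) and 11 Cpa3Cre/+ samples in 10 groups of 2 or 3 libraries. Cpa3Cre/+ mice carry Cre in 1 copy of Cpa3, a gene of mast cell granules, and the labels describe them as mast cell-deficient. Each genotype was sampled naive (untreated), immunized, and on challenge days 1, 3 and 5. Immunized and challenged mice had received 25 µg ovalbumin with 2 mg alum into the peritoneum on days 0 and 14. Challenged mice then chose between plain water and water holding 20% egg white and 8% sugar, on day 20 (challenge day 1), days 20 to 22 (day 3) or days 20 to 24 (day 5). Of the libraries 18 were female and 5 male. A male library was present in the Cpa3+/+ naive group and in every Cpa3Cre/+ group except day 5. Ages are not given in the sources used here. Male and female libraries of a group came from different mice, but the labels leave this unsaid for libraries of the same sex.

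Complement is a cascade of plasma and tissue proteins that tags surfaces for uptake, recruits leukocytes and can lyse cells. The classical and lectin routes cleave C4 and C2 to build a C3 convertase. The alternative route builds another from a fragment of C3 and from factor B (Cfb), which factor D (Cfd) cleaves. Both convertases cleave C3, the hub of the cascade. The regulators act at set steps: C1 inhibitor (Serping1) blocks the starting proteases, factor I (Cfi) cuts the active fragments of C3 and C4, and decay-accelerating factor (Cd55) dissociates convertases on the cell surface. The liver supplies most plasma complement, while epithelial, stromal and immune cells of the gut also transcribe parts of it.

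Total counts per library ran from 5.48 M to 19.3 M reads, with a median of 13.8 M. Levels are given as CPM, read counts scaled to library totals adjusted by TMM factors, which ran from 0.767 to 1.36. Epcam, an epithelial marker, was between 735 and 2522 CPM in every library. Of 6 fat cell markers, Lep was at 0 in all libraries, Adipoq, Plin1, Retn and Car3 reached at most 1.24 CPM, and Cidec was at 6.83 to 132 CPM in every library. Of 5 hepatocyte markers, Apoh was above 0 in every library (0.331 to 4.29 CPM), and Alb, Serpina1a, Ahsg and Fgb reached at most 0.687 CPM. Cpa3 was between 0.827 and 22.1 CPM in Cpa3+/+ and between 0.101 and 1.51 CPM in Cpa3Cre/+ libraries. The summed level of 6 mast cell markers was 13.4 to 570.4 CPM in Cpa3+/+ and 5.82 to 102 CPM in Cpa3Cre/+ libraries, so it was not at 0 in the second genotype. Cpa3Cre/+ naive replicate 1 stood apart, with the scaling factor of 1.36, the highest summed smooth muscle markers (4776 CPM) and the lowest summed epithelial markers (4203 CPM). The lowest factor, 0.767, was that of Cpa3Cre/+ day 5 replicate 3, which had the highest epithelial sum (20819 CPM). Cpa3+/+ day 1 replicate 2 had a factor of 0.841. Transcripts of B cell follicles summed to over 50 CPM in 3 libraries, Cpa3+/+ immunized replicate 1, Cpa3Cre/+ immunized replicate 2 and Cpa3Cre/+ day 1 replicate 2. In whole tissue, fewer cells of a type and less RNA per cell cannot be told apart.

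RefSeq promoter windows on GRCm38.p6 (250 bases before to 50 after the start site) matched 3 of the 8 genes. The upstream 250 bases of C3 and Cd55 are shown because these were the genes with the widest range of levels. C3 lies on chromosome 17 (GRCm38, chr17:57203970-57228136, minus strand, ENSMUSG00000024164), and its upstream stretch is chr17:57228137-57228386. Cd55 lies on chromosome 1 (chr1:130439027-130462744, minus strand, ENSMUSG00000026399), and its stretch is chr1:130462745-130462994. Both are written 5′ to 3′ on the gene's strand, and capitals mark every match to the motifs searched.
C3: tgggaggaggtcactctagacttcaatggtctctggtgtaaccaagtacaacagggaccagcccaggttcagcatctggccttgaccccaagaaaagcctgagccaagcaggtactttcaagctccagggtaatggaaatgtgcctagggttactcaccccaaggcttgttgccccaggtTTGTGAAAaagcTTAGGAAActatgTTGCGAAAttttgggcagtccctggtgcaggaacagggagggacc
Cd55: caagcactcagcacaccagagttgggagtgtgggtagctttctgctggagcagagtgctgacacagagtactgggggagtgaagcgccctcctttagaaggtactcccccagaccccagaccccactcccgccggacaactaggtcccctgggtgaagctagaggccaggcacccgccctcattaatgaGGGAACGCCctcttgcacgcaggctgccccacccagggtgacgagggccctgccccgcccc

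In C3 the capitals are 3 matches to the C/EBP pattern TTNNGNAA, which begin 70, 58 and 45 bases before the start site (positions -70, -58 and -45). Of these TTGCGAAA at -45 matched on both strands. C/EBP factors drive acute phase genes. At least 1 match was present in 40.7% of the 32851 windows in the table, and 3 or more places in 3.6%. In Cd55 the capitals are 1 match, on the opposite strand, to the NF-kB pattern GGNNTTNCC at -61, a pattern found in 16% of windows. Neither the STAT pattern TTCNNNGAA (8.3% of windows) nor the interferon response core GAAANNGAA (8.56%) was in the C3 or Cd55 window on either strand. These matches describe letters, and no binding was measured.

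How firmly a level can be read depends on how reads were shared out among neighbours. Cfb (chr17:34856374-34862518) and C2 (chr17:34862604-34898265) sit side by side on the minus strand. The annotated read-through gene Gm20547 (chr17:34856412-34882042) covers 79.5% of the exon bases of Cfb and 42.8% of those of C2 on the same strand. Gm20547 had 0 reads in all 23 libraries. Reads in the shared bases were thus not counted for Gm20547. Whether they were counted for Cfb and C2 or left out is not given in the sources used here. The levels of Cfb and C2 are therefore uncertain and may be too low. On the other strand, Zbtb12 brings the shared bases of C2 to 46.9%. C4b (chr17:34728380-34743882) has a near-identical copy, C4a, and 35.2% of the 50-base stretches of the C4b transcript also occur in C4a. C4a stood at 1.32 to 7.31 CPM against 21.4 to 74.6 CPM for C4b. Cd55 shares 10.7% of such stretches with its copy Cd55b, which did not exceed 0.556 CPM, and 2.1% of its exon bases with the antisense gene Gm16083.

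Per kilobase of exon, Serping1 and C3 had the highest mean levels of the 8 genes, at 27.1 and 22.8 CPM per kb. Cd55 followed at 13.2, C4b at 8.19, Cfb at 4.71, Cfi at 2.54 and C2 at 0.947 CPM per kb. The same counts divided by only the bases that no other gene on the same strand shares gave Cfb 23 CPM per kb and C2 1.66 CPM per kb. These rates hold only if every read in shared bases had been left out. The place of Cfb in this order thus turned on the counting. Among the other complement genes, C1qa, a chain of the C1q recognition protein, had 59.2 CPM per kb. The highest means in the remaining roles were those of C1qbp (37.1), a C1q binding protein listed with the receptors, and Cd59a (16.4), a membrane inhibitor of lysis. They were followed by Clu (7.56), a soluble regulator, Cfp (4.22), which stabilises the alternative convertase, and C6 (2.81), a component of the lytic pore, all in CPM per kb.

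**Figure D1:**
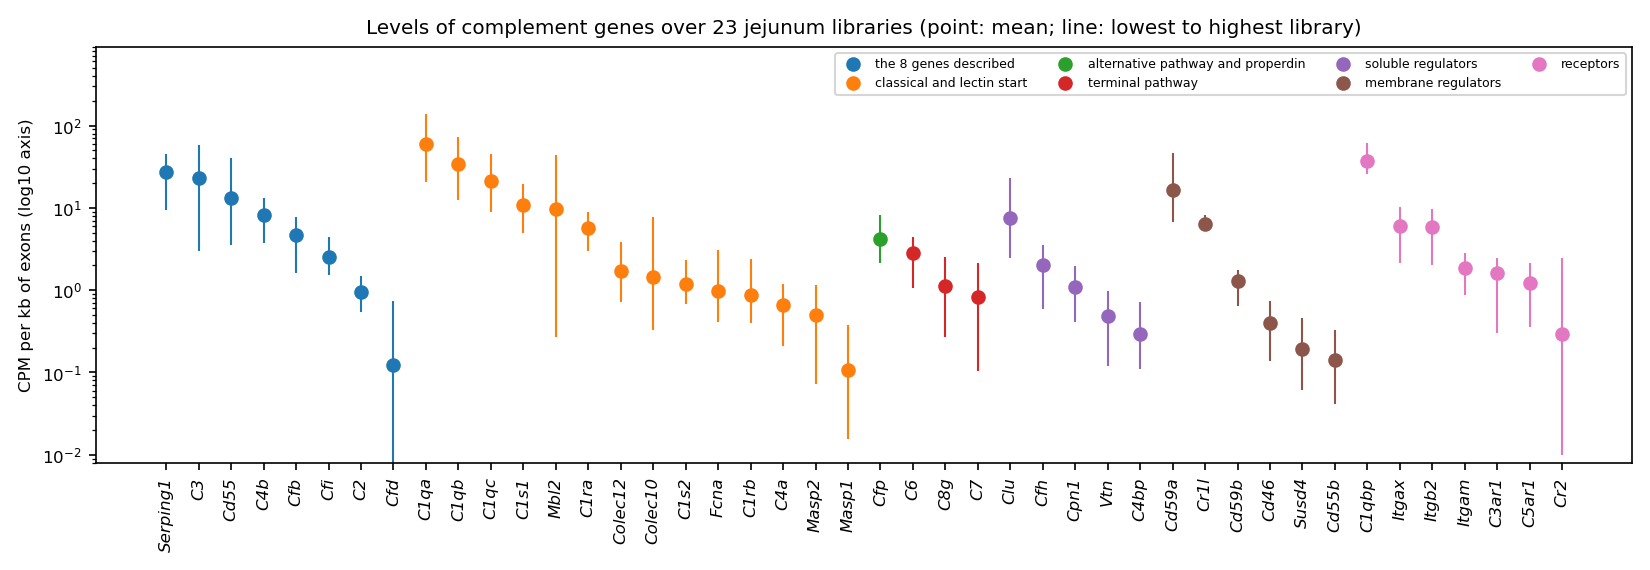
Mean level of each complement gene with at least 0.1 CPM per kb (points), with the lowest and highest of 23 libraries (lines), on a log10 axis and coloured by role. Over all exon bases, shared ones included, Serping1 and C3 lead the 8 genes described, and C1qa is the highest of all. Cfd is near the bottom, with its line running off the axis because its lowest libraries are at 0.

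C3 was the gene with the widest range of the 7 measured ones, 19.6-fold from its lowest to its highest library. In Cpa3+/+ jejunum it stood at 55.6, 15.4 and 24.3 CPM in the naive, 301 and 97.3 CPM in the immunized, 117, 114 and 126 CPM in the day 1, 194 and 84.0 CPM in the day 3, and 185 and 114 CPM in the day 5 libraries. In Cpa3Cre/+ jejunum it stood at 77.2 and 26.1 CPM in the naive, 171 and 196 CPM in the immunized, 155 and 96.0 CPM in the day 1, 106 and 88.6 CPM in the day 3, and 197, 75.3 and 83.3 CPM in the day 5 libraries. The 5 naive libraries were the low ones, and 17 of the 18 libraries from immunized or challenged mice lay above the highest of them. The exception was Cpa3Cre/+ day 5 replicate 2 at 75.3 CPM. Among the 8 groups that were not naive, neighbours in the order of means overlapped in every case.

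The contrast that chose the set, Cpa3+/+ immunized against naive, gave C3 a log2 fold change of 2.47 ± 0.56 (SE). It was 1.45 without Cpa3+/+ immunized replicate 1, 3.10 without Cpa3+/+ immunized replicate 2, and 3.06 without Cpa3+/+ naive replicate 1. The same step in Cpa3Cre/+ jejunum, which the choice did not use, gave C3 a log2 fold change of 1.97 ± 0.62, with both immunized libraries above both naive ones. This did not pass the threshold over all genes (edgeR adjusted p = 0.303, DESeq2 adjusted p = 0.0691). It passed in edgeR when the filter on low counts was removed (2.01 ± 0.34, adjusted p = 1.45e-06). In this comparison that run called 776 of all genes, against 0 with the filter. The value was 2.61 without Cpa3Cre/+ naive replicate 1 and 1.52 without Cpa3Cre/+ naive replicate 2, and it was 1.41 in female libraries alone.

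Markers of mesothelium, the cell layer on the outer surface of the gut, moved with C3 from naive to immunized Cpa3+/+ jejunum, but not clearly in Cpa3Cre/+ jejunum. Their 5 markers summed to 10.3, 2.70 and 4.15 CPM in Cpa3+/+ naive and to 34.4 and 16.5 CPM in Cpa3+/+ immunized libraries, and all 5 had a positive log2 fold change there, with a median of 2.92. In Cpa3Cre/+ jejunum the sums were 25.6 and 10.97 CPM naive and 21.2 and 15.7 CPM immunized, and the median was 0.18, with 3 of 5 positive. In the Cpa3+/+ naive libraries Msln was at 1.98, 0.0966 and 0.399 CPM and Lrrn4 at 0.992, 0.193 and 0.160 CPM. The mesothelial gene Wt1 was at 0.165, 0 and 0.319 CPM there. Several of these values rest on few reads, so fold changes and correlations of these genes are uncertain. Upk3b and Upk1b did not fall below 0.579 and 1.60 CPM in any library. With the log2 marker sum as a covariate, chosen after the data were seen, the C3 value in Cpa3+/+ immunized against naive was 0.73 ± 0.49, and that in Cpa3Cre/+ was 1.93 ± 0.39 (edgeR adjusted p = 0.202). The value in Cpa3+/+ was 1.42 without the libraries with follicle transcripts. The part of mesothelium in the C3 level was not tested.

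The 5 genes whose levels were most like those of C3 over the 23 libraries were Msln (Pearson r of log2 CPM 0.83), Lrrn4 (0.81), Slco4c1 (0.80), Wt1 (0.80) and Ildr2 (0.79). Msln, Lrrn4 and Wt1 are on the mesothelium list. The correlation of C3 with the mesothelium sum was 0.81 and with the stroma sum 0.35. With the naive libraries left out, r with C3 was 0.48 for Msln, 0.70 for Lrrn4, 0.29 for Slco4c1, 0.61 for Wt1 and 0.68 for Ildr2. Among the other complement genes of the set, r with C3 was 0.62 for C4b, 0.53 for C2, 0.50 for Serping1, 0.15 for Cd55, 0.14 for Cfi and -0.24 for Cfb. Without the naive libraries these were, in that order, 0.49, 0.27, 0.37, -0.19, -0.04 and 0.26. These correlations describe libraries that share their tissue make-up and scaling, and are not tests.

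**Figure D2:**
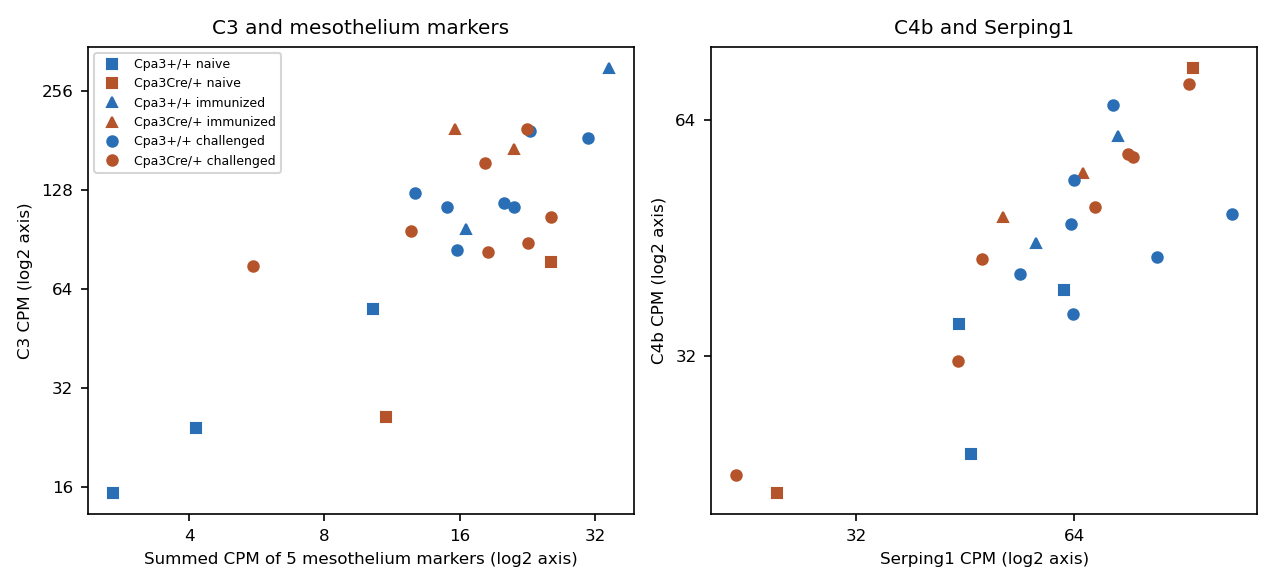
Left, C3 CPM against the summed CPM of 5 mesothelium markers; right, C4b CPM against Serping1 CPM; each point is 1 of 23 libraries on log2 axes, blue for Cpa3+/+ and orange for Cpa3Cre/+, with squares for naive, triangles for immunized and circles for challenged. Cpa3+/+ naive libraries lie low on both axes for C3 and mesothelium (r = 0.81), and C4b is high where Serping1 is high (r = 0.85).

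After immunization C3 in Cpa3Cre/+ jejunum gave no called difference on any challenge day. Cpa3Cre/+ challenge libraries against Cpa3Cre/+ immunized ones gave -0.60 ± 0.59 on day 1, -0.92 ± 0.59 on day 3 and -0.96 ± 0.57 on day 5 (edgeR adjusted p = 0.991, 0.930 and 0.645). Between genotypes over the 3 challenge days, C3 differed by -0.06 ± 0.35, within its error.

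Cd55 had a different pattern, with its high libraries on a single challenge day of a single genotype. In Cpa3+/+ jejunum it stood at 22.7, 34.6 and 42.1 CPM in the naive, 35.9 and 29.9 CPM in the immunized, 51.0, 26.2 and 92.4 CPM in the day 1, 57.1 and 72.3 CPM in the day 3, and 44.2 and 48.1 CPM in the day 5 libraries. In Cpa3Cre/+ jejunum it stood at 17.4 and 59.4 CPM in the naive, 30.2 and 68.7 CPM in the immunized, 74.1 and 38.1 CPM in the day 1, 46.1 and 48.7 CPM in the day 3, and 179.7, 196 and 154 CPM in the day 5 libraries. The 3 Cpa3Cre/+ day 5 libraries lay above all 20 others, of which the highest was at 92.4 CPM.

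On day 5, Cd55 was higher in Cpa3Cre/+ than in Cpa3+/+ libraries by 1.94 ± 0.53 on the log2 scale (edgeR adjusted p = 0.524, DESeq2 adjusted p = 0.123). Against Cpa3Cre/+ immunized jejunum the day 5 value was 1.86 ± 0.53 (edgeR adjusted p = 0.245). DESeq2 called this last difference (adjusted p = 0.0476), where it called 1.14% of its tested genes. The change from day 1 to day 5 differed between the genotypes by 1.97 ± 0.72 (edgeR adjusted p = 0.326), and DESeq2 gave no adjusted p for it. Leaving out Cpa3+/+ day 1 replicate 3 gave 1.42 for this difference, and leaving out Cpa3Cre/+ day 1 replicate 1 gave 2.81. These 3 values share the Cpa3Cre/+ day 5 libraries. Averaged over both genotypes, day 5 against day 1 gave Cd55 0.69 ± 0.35 (edgeR adjusted p = 0.351). None of these passed in edgeR over all 17236 genes, although the direction of each was the same in every alternative run. Without the filter on low counts, edgeR called the genotype difference on day 5, the difference from immunized jejunum and the interaction (adjusted p = 1.98e-07, 7.86e-07 and 0.000578), and also day 5 against day 1 (0.0311). That run called 466, 341, 778 and 986 of all genes in these comparisons, against 0, 6, 0 and 234 with the filter. The standard errors of Cd55 in the first 3 were 0.30, 0.31 and 0.41, against 0.53, 0.53 and 0.72 with the filter. Leaving out 1 library at a time moved the value against immunized jejunum from 1.37 without Cpa3Cre/+ immunized replicate 1 to 2.96 without Cpa3Cre/+ immunized replicate 2. It was 1.83 (edgeR adjusted p = 0.0163) without the 3 libraries of extreme scaling factor, 1 of them Cpa3Cre/+ day 5 replicate 3, and 3.36 (adjusted p = 0.201) without those with follicle transcripts, choices made after the data were seen.

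The genes most like Cd55, named after their values were seen, were AA467197 (r = 0.91), Tgfbi (0.89), Pla2g4c (0.88), Sprr2a3 (0.87) and Gsdmc4 (0.86). Pla2g4c, a phospholipase, reached 1045, 969 and 112 CPM in the Cpa3Cre/+ day 5 libraries, against 4.51 and 77.3 CPM in the Cpa3+/+ day 5 ones. It was above 112 CPM elsewhere too, at 175 CPM in Cpa3+/+ day 1 replicate 3 and 149 CPM in Cpa3Cre/+ naive replicate 2. Summed epithelial markers on day 5 were 10316, 9358 and 20819 CPM in Cpa3Cre/+ and 10452 and 8143 CPM in Cpa3+/+ libraries, and r of Cd55 with that sum over all libraries was 0.41. Their part in the Cd55 level was not tested.

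**Figure D3:**
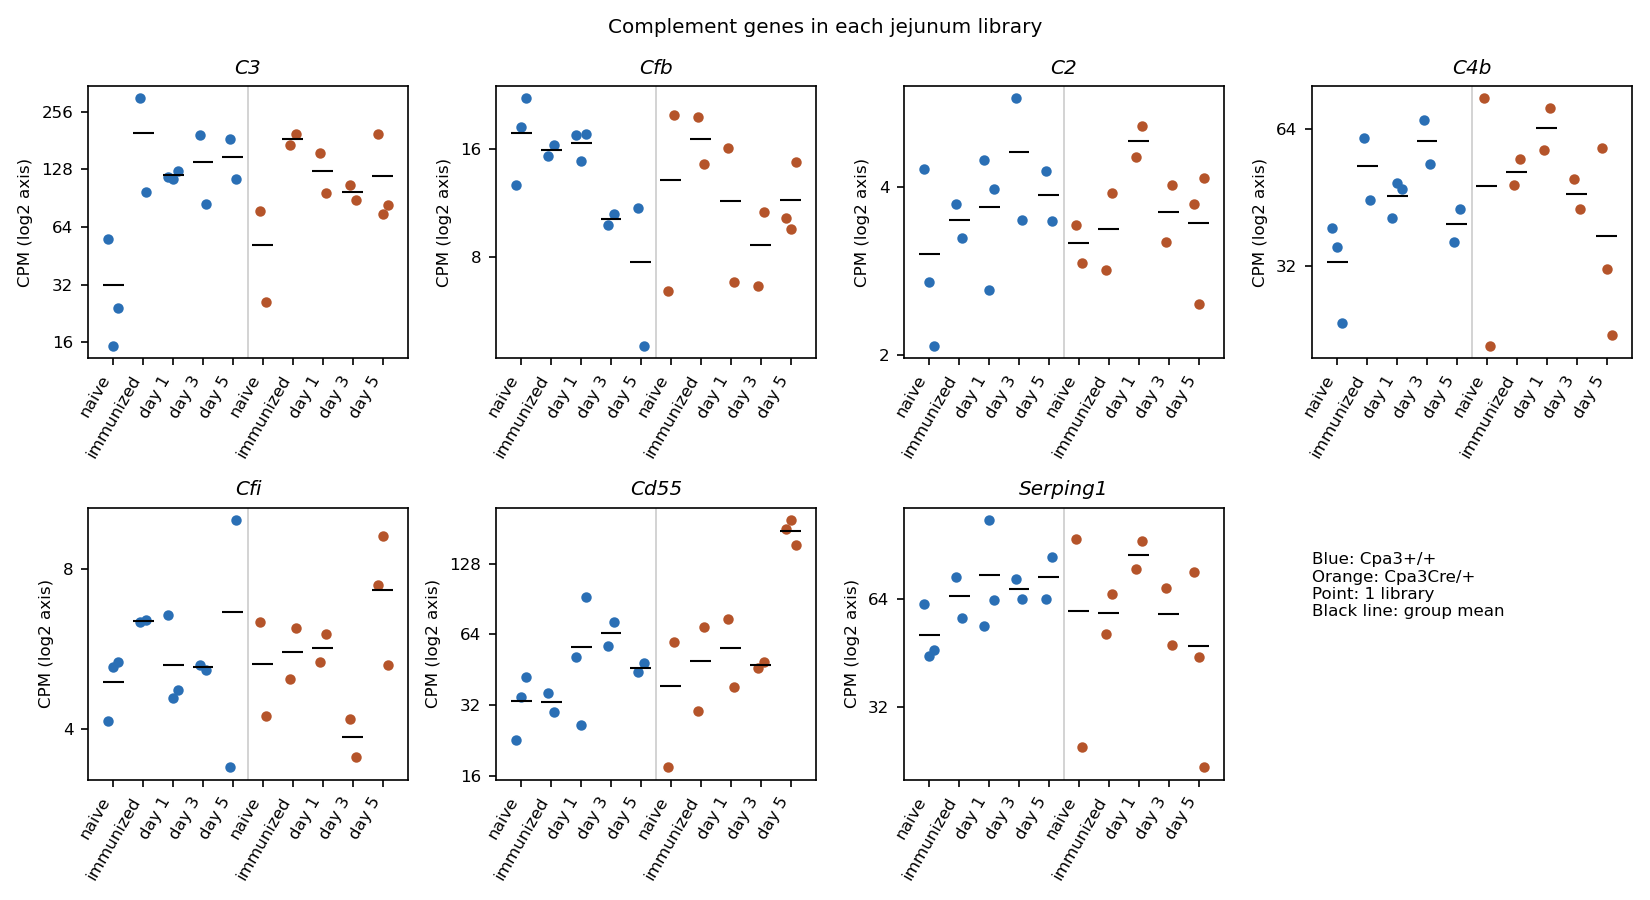
CPM of the 7 measured genes in each library (points) by group, on log2 axes with a range of their own, with the group mean as a black line; blue is Cpa3+/+ and orange Cpa3Cre/+. The naive libraries are low for C3, and the Cpa3Cre/+ day 5 libraries of Cd55 (154 to 196 CPM) lie above all others.

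C4b, the source of the C4 cleaved by the classical and lectin routes, and Serping1, the inhibitor of their starting proteases, varied together. C4b stood at 38.9, 35.2 and 24.0 CPM in Cpa3+/+ naive, 61.2 and 44.7 CPM in immunized, 40.8, 48.6 and 47.3 CPM in day 1, 66.9 and 53.7 CPM in day 3, and 36.2 and 42.8 CPM in day 5 libraries. In Cpa3Cre/+ it stood at 74.6 and 21.4 CPM naive, 48.3 and 54.8 CPM immunized, 57.5 and 71.2 CPM on day 1, 49.6 and 42.6 CPM on day 3, and 58.0, 31.5 and 22.6 CPM on day 5. Both the highest and the lowest library were Cpa3Cre/+ naive, so the groups overlapped.

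Serping1 stood at 61.8, 44.4 and 46.1 CPM in Cpa3+/+ naive, 73.4 and 56.7 CPM in immunized, 53.8, 106 and 63.3 CPM in day 1, 72.4 and 63.9 CPM in day 3, and 63.8 and 83.2 CPM in day 5 libraries. In Cpa3Cre/+ it stood at 93.4 and 24.9 CPM naive, 51.0 and 65.8 CPM immunized, 77.1 and 92.2 CPM on day 1, 68.3 and 47.7 CPM on day 3, and 75.8, 44.2 and 21.8 CPM on day 5. Its lowest library, Cpa3Cre/+ day 5 replicate 3, was also low for C4b.

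The correlation of C4b with Serping1 was 0.85 over the 23 libraries and 0.91 for deviations from the group means. C4b was most like C1ra (r = 0.92), a protease of the C1 complex, and Serping1 most like the collagen gene Col6a1 (r = 0.94). With the sum of 6 fibroblast and stroma markers, r was 0.79 for C4b and 0.77 for Serping1. This was not particular to stroma. With the macrophage sum r was 0.73 for C4b and 0.77 for Serping1, and with the endothelium sum 0.65 and 0.76. The stroma sum was 1319 and 320 CPM in the Cpa3Cre/+ naive and 215 CPM in Cpa3Cre/+ day 5 replicate 3. Serping1 was highest (106 CPM) in Cpa3+/+ day 1 replicate 2, where the stroma sum was low (397 CPM). The part of stroma in these levels was not tested beyond the covariate fits given below and in the closing section.

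From day 1 to day 5, averaged over the genotypes, C4b differed by -0.64 ± 0.27 (edgeR adjusted p = 0.250) and Serping1 by -0.57 ± 0.32 (adjusted p = 0.398). On day 1 C4b was 0.79 ± 0.39 higher on the log2 scale in Cpa3Cre/+ than in Cpa3+/+ jejunum (edgeR adjusted p = 0.635). All 6 stroma markers were also positive there, with a median of 1.04, and 4 of 5 macrophage markers, with a median of 0.82. With the stroma covariate, chosen after the data were seen, the C4b value was 0.028. The part of these cell types in the C4b value was not tested beyond this fit. Without a covariate the C4b value was 0.31 when Cpa3Cre/+ day 1 replicate 2 was left out and 1.33 when Cpa3Cre/+ day 1 replicate 1 was. In Cpa3+/+ immunized against naive jejunum C4b gave 0.56 ± 0.37 and Serping1 0.19 ± 0.45, as a description.

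Cfb, the protease of the alternative convertase, had the highest correlation with epithelial transcripts of the 7 genes, with r of 0.69 with the epithelium sum and -0.50 with the stroma sum. It stood at 12.7, 18.4 and 22.1 CPM in Cpa3+/+ naive, 15.3 and 16.5 CPM in immunized, 17.5, 14.8 and 17.6 CPM in day 1, 9.86 and 10.5 CPM in day 3, and 10.9 and 4.54 CPM in day 5 libraries. In Cpa3Cre/+ it stood at 6.44 and 19.8 CPM naive, 19.6 and 14.5 CPM immunized, 16.1 and 6.83 CPM on day 1, 6.66 and 10.7 CPM on day 3, and 10.3, 9.61 and 14.7 CPM on day 5. In Cpa3+/+ all day 3 and day 5 libraries lay below the immunized ones, which was described by -0.64 ± 0.47 on day 3 and -1.04 ± 0.47 on day 5. In Cpa3Cre/+ both day 3 libraries lay below both immunized ones, by -0.99 ± 0.47 (edgeR adjusted p = 0.930), and on day 5 the value was -0.34 ± 0.45 (adjusted p = 0.898). The interaction from day 1 to day 5 was 1.22 ± 0.62 (edgeR adjusted p = 0.339).

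C2, the protease of the classical convertase, had the lowest level per kb of the 7 genes. It stood at 4.30, 2.70 and 2.08 CPM in Cpa3+/+ naive, 3.73 and 3.24 CPM in immunized, 4.46, 2.61 and 3.96 CPM in day 1, 5.76 and 3.49 CPM in day 3, and 4.27 and 3.47 CPM in day 5 libraries. In Cpa3Cre/+ it stood at 3.41 and 2.92 CPM naive, 2.84 and 3.89 CPM immunized, 4.53 and 5.14 CPM on day 1, 3.19 and 4.03 CPM on day 3, and 3.72, 2.46 and 4.14 CPM on day 5. Its range was 2.78-fold over all libraries, the narrowest of the 7 genes, from 1097 reads in all.

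Cfi, which inactivates C3b and C4b, stood at 4.13, 5.22 and 5.35 CPM in Cpa3+/+ naive, 6.35 and 6.41 CPM in immunized, 6.54, 4.57 and 4.73 CPM in day 1, 5.28 and 5.16 CPM in day 3, and 3.38 and 9.89 CPM in day 5 libraries. In Cpa3Cre/+ it stood at 6.34 and 4.23 CPM naive, 4.95 and 6.19 CPM immunized, 5.34 and 6.03 CPM on day 1, 4.16 and 3.54 CPM on day 3, and 7.44, 9.21 and 5.27 CPM on day 5. The lowest and the highest library were both Cpa3+/+ day 5. The day 5 against day 1 value of Cfi was 0.32 ± 0.27 (edgeR adjusted p = 0.610).

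Cfd, the protease that activates factor B and a product of fat cells, had 36 reads in all and 0 reads in 12 libraries. A count of 0 allowed up to 0.200 to 0.496 CPM there, for counting error only. Its highest libraries held 11 reads (Cpa3Cre/+ day 1 replicate 1) and 8 reads (Cpa3+/+ immunized replicate 1). The same libraries, in that order, had the highest Adipoq (0.186 and 0.138 CPM) and Car3 (1.24 and 1.10 CPM) of all. Plin1 was at 0.124 and 0 CPM there, Retn at 0 and 0.138 CPM, and Lep at 0, all on few reads. Of the fat cell markers, Adipoq was at 0 in 17 libraries and Lep in 23, while Cidec, a lipid droplet protein, was at 6.83 CPM or more in all of them. The part of fat cells in the Cfd reads was not tested. Fat had been removed from the jejunum, per the labels.

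Over the 11 comparisons with a test, edgeR called 0 of 77 values of the 7 genes at an adjusted p under 0.05, while 6 had an unadjusted p under 0.05. DESeq2 called 1, Cd55, and gave 6 of the 7 genes no adjusted p in the interaction. The lowest edgeR adjusted p of any was 0.245. The background was small in most comparisons. For Cpa3Cre/+ immunized against naive, edgeR called 0% of 17236 genes, with 13.1% at an unadjusted p under 0.05, and 1 of the 7 genes (C3) was among the latter. For Cpa3Cre/+ day 1 against immunized these shares were 0% and 2.12%, with none of the 7 genes. They were 0% and 4.31% for day 3 against immunized (Cfb), and 0.0348% and 9.74% for day 5 against immunized (Cd55).

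Between the genotypes over the 3 challenge days, edgeR called 0.0058% of genes, with 0.702% at an unadjusted p under 0.05, and none of the 7 genes was in either share. Their log2 fold changes lay between -0.18 and 0.47, with a median of -0.02 against 0.01 for all genes. On day 1 the shares were 0% and 7.39%, on day 3 they were 0% and 1.55%, and on day 5 they were 0% and 9.26%, with Cd55 alone of the 7 genes at an unadjusted p under 0.05 on day 5. For day 3 against day 1 they were 0% and 3.04%, with none of the 7 genes. For day 5 against day 1 they were 1.36% and 15.9%, with C4b in the second share. For the difference between genotypes in that step they were 0% and 15.2%, with Cd55. Counts of 1 in 7 genes are close to several of these backgrounds.

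**Figure D4:**
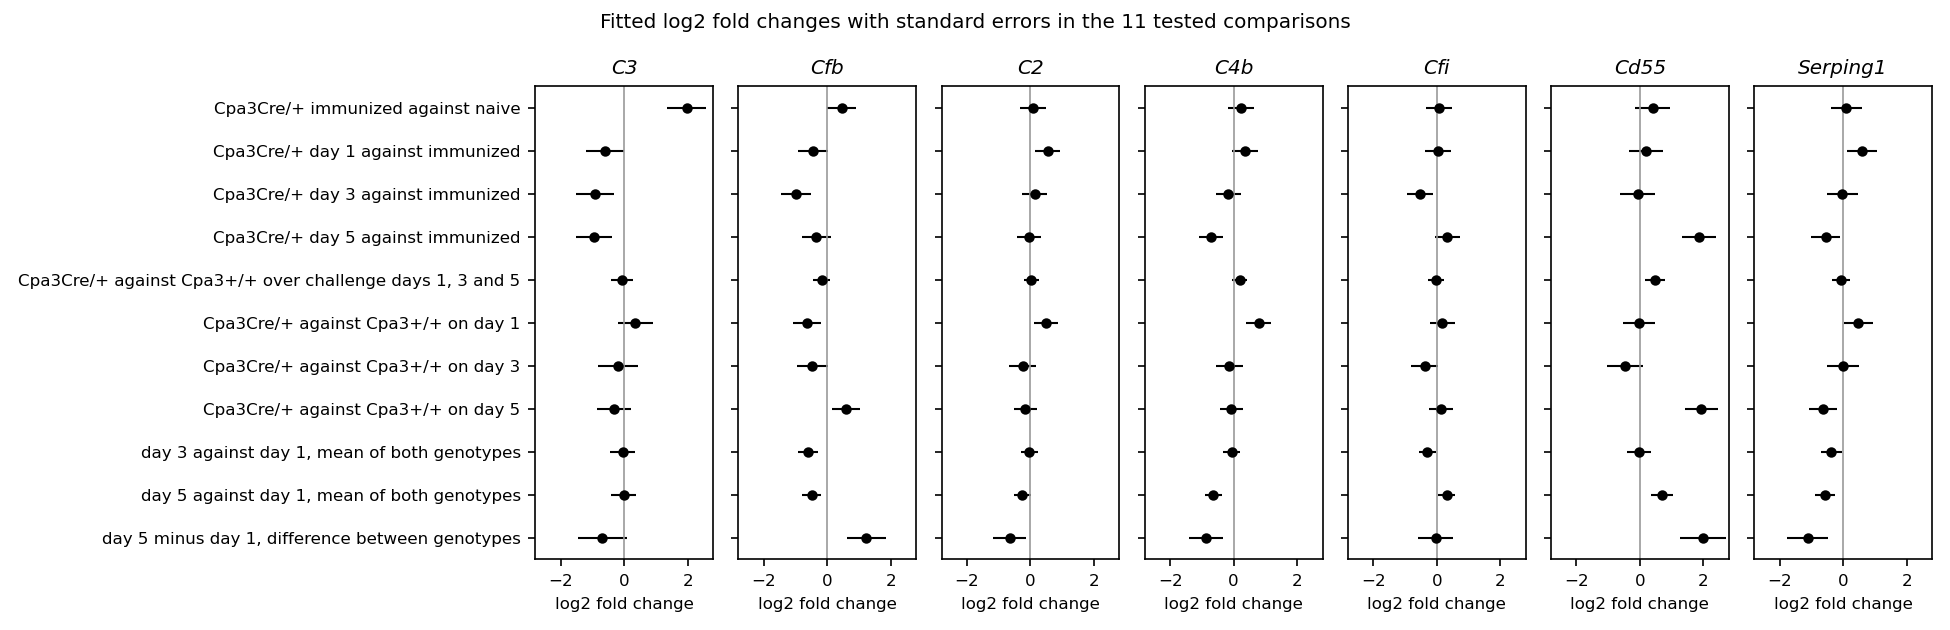
Fitted log2 fold change (points) with its standard error (lines) of each of the 7 genes in the 11 tested comparisons, first group minus second. C3 in Cpa3Cre/+ immunized against naive (1.97) and Cd55 in Cpa3Cre/+ day 5 against immunized (1.86), between genotypes on day 5 (1.94) and in the interaction (1.97) lie farthest from 0, and none passed the threshold in edgeR.

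The other 46 complement genes listed by role gave 36 that could be tested. Of these, edgeR called 2 lower on day 5 than on day 1, averaged over the genotypes, where it called 234 of all genes (1.36%). They were C1qa, by a log2 fold change of -1.35 ± 0.30 (adjusted p = 0.0354), and C1qc, by -1.18 ± 0.26 (adjusted p = 0.0382). The third chain, C1qb, gave -1.05 ± 0.27 and did not pass (edgeR adjusted p = 0.0631). The 3 chains together form C1q, which binds antibody complexes and is made mainly by macrophages.

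C1qa fell from 82.4, 94.2 and 59.7 CPM in Cpa3+/+ and 81.0 and 142 CPM in Cpa3Cre/+ on day 1 to 22.7 and 61.2 CPM in Cpa3+/+ and 46.7, 32.3 and 33.0 CPM in Cpa3Cre/+ on day 5. C1qc fell from 48.8, 52.1 and 36.4 CPM in Cpa3+/+ and 53.1 and 87.7 CPM in Cpa3Cre/+ to 17.2 and 41.1 CPM in Cpa3+/+ and 31.0, 22.5 and 22.2 CPM in Cpa3Cre/+. The days overlapped through Cpa3+/+ day 5 replicate 2 for both genes. Leaving out any of 9 libraries in turn took the edgeR adjusted p of C1qa to 0.05 or above. These were Cpa3+/+ naive replicates 1 and 2, day 1 replicates 1 and 2 and day 5 replicate 1, and Cpa3Cre/+ day 1 replicate 2, day 3 replicate 1 and day 5 replicates 1 and 2. For C1qc the same libraries and Cpa3+/+ naive replicate 3 did so. In female libraries alone the edgeR adjusted p was 0.115 for C1qa and 0.120 for C1qc. The edgeR adjusted p of C1qa ranged from 0.0158 to 0.193 over these fits and was 0.176 without the 3 libraries with follicle transcripts, and that of C1qc from 0.0154 to 0.203 and 0.186.

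The 5 macrophage markers gave a median of -0.71 in the same comparison, with 1 positive and none called by edgeR. Their summed level was 79.8 to 132 CPM in Cpa3+/+ and 153 to 184 CPM in Cpa3Cre/+ on day 1, and 78.2 to 141 CPM and 36.3 to 116 CPM on day 5. Their part in the C1q values was not tested.

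**Figure D5:**
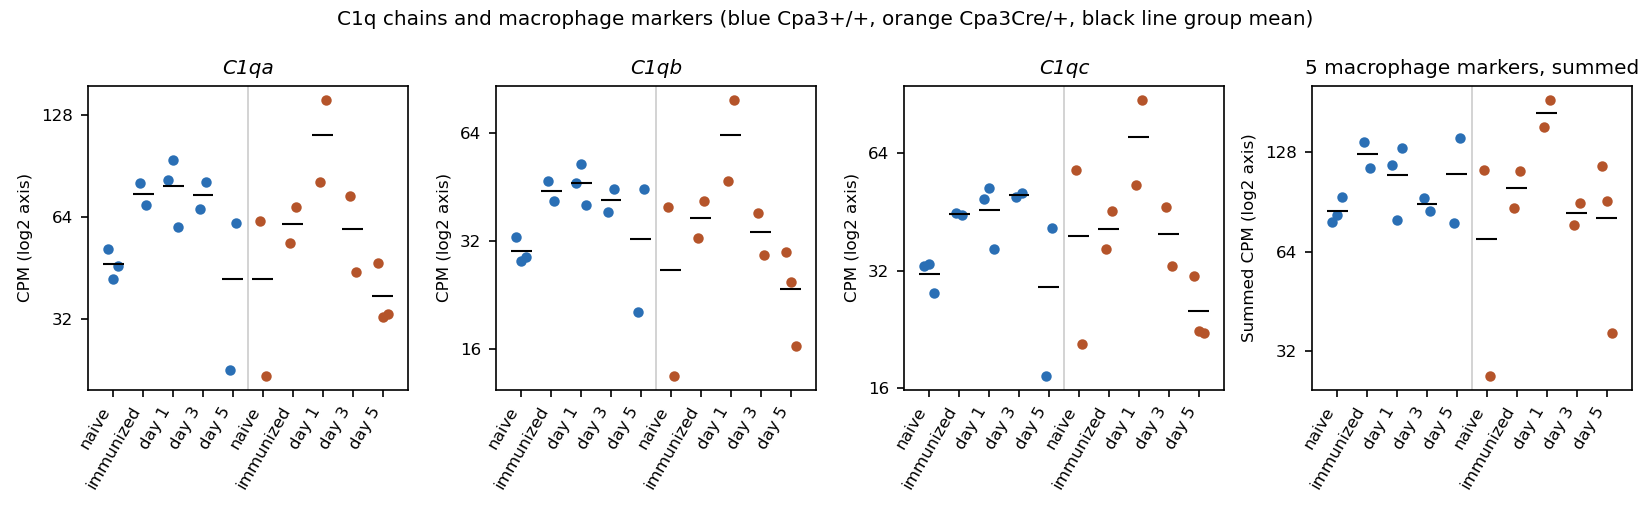
CPM of the 3 C1q chains and summed CPM of 5 macrophage markers in each library (points) by group, on log2 axes, with the group mean as a black line; blue is Cpa3+/+ and orange Cpa3Cre/+. C1qa reaches 142 CPM on Cpa3Cre/+ day 1 and lies between 32.3 and 46.7 CPM on Cpa3Cre/+ day 5.

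DESeq2 called 5 of these genes in the same comparison, where it called 6.49% of its tested genes: C1qa, C1qb and C1qc, Cfp (-1.02 ± 0.30 in edgeR, adjusted p = 0.0969) and C1qbp (0.53 ± 0.16, adjusted p = 0.0984). By role, 2 of 14 genes of the classical and lectin start were called by edgeR, and none of the 1 alternative pathway, 3 terminal, 6 soluble regulator, 5 membrane regulator and 7 receptor genes. The median of the 36 genes was -0.27 and that of all genes 0.02. In the remaining 10 tested comparisons edgeR and DESeq2 called 0 of the 36 genes, although DESeq2 gave 35 no adjusted p in the interaction. At an unadjusted p under 0.05 edgeR placed between 0 and 6 of the 36, given here with the share of all genes. For Cpa3Cre/+ immunized against naive it was 5 (13.1%). Against Cpa3Cre/+ immunized it was 5, 3 and 5 on days 1, 3 and 5 (2.12%, 4.31% and 9.74%). Between genotypes it was 6, 0 and 1 on days 1, 3 and 5 (7.39%, 1.55% and 9.26%), and 0 over these days (0.702%). It was 2 for day 3 against day 1 (3.04%) and 6 in the interaction (15.2%).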

How the data were processed

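Whole jejunum (fat and Peyer's patches removed) was sequenced in 23 libraries from total RNA isolated with a PureLink kit and made into libraries with a TruSeq stranded kit (per the labels' protocols). The submitters' processing notes name STAR, featureCounts of Subread 1.5.1 and the build mm10/GRCm38. The values the authors deposited are raw counts per Ensembl gene, which were used unchanged. The strand and overlap settings and the annotation release are not given in the sources used here. Symbols and positions came from GENCODE vM21 on GRCm38 for 55227 genes; the 260 others held 0.00137% of reads.

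Genes passing filterByExpr by group (17236) were fitted in edgeR 4.0.16 (R 4.3.3; TMM, robust quasi-likelihood F test, two-sided) with 10 group means and sex (12 residual degrees of freedom). The biological coefficient of variation was 28.6%. P-values were adjusted by Benjamini-Hochberg over all tested genes, with a threshold of 0.05. Standard errors were derived from F, as the size of the log2 fold change divided by F's square root. Since replicates of the same sex may be technical, p-values reflect only how much these libraries vary. No pair of libraries in a group agreed within sampling noise (chi-square per degree of freedom at least 13.7). The code was tested on simulated data.

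The members and lists were chosen with earlier results of these data known. Named genes were the 8 members, other complement genes that passed, the one with the highest mean CPM per kb in each role, copies and overlapping genes, and the 5 genes most like C3 (no predicted genes, antigen receptors or Y-linked genes). Outside this rule, the genes most like Cd55, C4b and Serping1, and C1qb, were named after their values were seen. Alternatives were DESeq2 1.42.0 and its size factors, no low-count filter, no sex term, female libraries, a replicate block, each library left out, and 4 chosen after the data were seen: mesothelium or stroma markers as a covariate, and leaving out libraries with follicle transcripts or with TMM factors below 0.85 or above 1.3.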

Additional observations from a re-analysis of the deposited data

How the results depend on the processing

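Of 363 alternative counts of the 7 genes called by edgeR or DESeq2 in the tested comparisons, 356 were 0, as in the fit reported. Without the filter on low counts edgeR called 1 gene in 5 comparisons: C3 in Cpa3Cre/+ immunized against naive, and Cd55 in the Cpa3Cre/+ day 5 against immunized, day 5 genotype, day 5 against day 1 and interaction comparisons. DESeq2, and edgeR without the libraries of extreme scaling factor, each called 1 (Cd55) on Cpa3Cre/+ day 5 against immunized. The cause was not tested.

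A change of sign is given for values larger than their standard error; 271 further changes of sign were of values within it. Without the follicle libraries Serping1 on Cpa3Cre/+ day 1 against immunized was -0.12, C3 on Cpa3+/+ day 1 against immunized 0.28, and Cd55 between immunized genotypes -0.84. With the stroma covariate Serping1 between genotypes on day 1 was -0.39, and the C4b and Serping1 interactions were 0.39 and 0.25. With the mesothelium covariate C4b in Cpa3+/+ immunized against naive was -0.022, and C3 between naive genotypes -0.69. Without the libraries of extreme scaling factor Cfb and C4b between naive genotypes were 0.015 and -0.49. Leaving out 1 library at a time gave -0.90 to 0.18 for Cfb and -0.18 to 0.58 for Cfi on day 5 against day 1, -1.37 to 0.28 for C3 on Cpa3+/+ day 1 against immunized, -0.051 to 0.68 for C2 on Cpa3+/+ day 3 against immunized, -1.51 to 0.062 for Cfb and -0.46 to 1.04 for C4b between naive genotypes, and -0.59 to 1.00 for Cd55 between immunized genotypes.

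Over all genes, calls on day 5 against day 1 (234) became 986 without the filter, 923 in DESeq2, 85 in female libraries, 1531 with the stroma covariate, 30 without the follicle libraries, 2643 without those of extreme scaling factor, and 8 to 1348 with 1 library left out. On Cpa3Cre/+ day 5 against immunized (6) the same range was 0 to 327, with 341 without the filter, 177 in DESeq2, 246 with the stroma covariate and 1478 without those of extreme scaling factor; female libraries, the mesothelium covariate and the absence of follicle libraries gave 0. In Cpa3Cre/+ immunized against naive (0) it was 0 to 2013, with 776 without the filter, 78 in DESeq2, 1235 in female libraries and 17 without those of extreme scaling factor. Between genotypes over the challenge days (1) it was 0 to 5, with 39 without the filter, 7 in DESeq2 and 3 without the sex term. The 7 other comparisons, with 0 calls, gave 49 to 778 without the filter and 0 to 15 in DESeq2.

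Between libraries with the same replicate number, deviations from the group means had r of -0.31 to 0.56 (93 pairs, median -0.01). Between those with different numbers r was -0.56 to 0.56 (144 pairs, median 0.003). In a group of 2 libraries the deviations are exact opposites, so the pairs are not independent and cannot exclude a pairing by replicate number. With the number as a replicate block edgeR called 0 of the 7 genes in every tested comparison and 83 genes in all on day 5 against day 1, where C1qa and C1qc no longer passed (adjusted p = 0.0679 and 0.0705). C3 in Cpa3Cre/+ immunized against naive was 2.07 (adjusted p = 0.243), and Cd55 on day 5 between genotypes 1.79 (adjusted p = 0.881). With 2 or 3 libraries a group, differences of the size of these standard errors were not detectable at this depth and number.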
